A study of Mus musculus with 12 samples.

Results

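The hearts of STING-deficient mice given cisplatin (STING-/-+CDDP, n = 3) were compared, gene by gene, with the hearts of wild-type mice given the same cisplatin (CDDP, n = 3). These are 6 of the 12 hearts of the series. All 12 hearts came from male mice that entered the study at 8 weeks of age, and the tissue was collected on day 22. Cisplatin was injected into the peritoneum at 6 mg/kg on days 1, 8 and 15. The other 6 hearts came from wild-type (Saline, n = 3) and STING-/- mice (n = 3) that the labels give as untreated and the methods as saline-injected. The wild-type mice were C57BL/6J, the STING-/- mice (labelled Tmem173-/-, the older name of the gene) were on a C57BL/6J background, and the methods name a different supplier for each, so genotype and supplier cannot be told apart. Each heart is 1 library. Expression was deposited as TPM, a transcript level scaled for gene length so that the values of every heart have the same sum. A TPM is thus a share of the measured RNA, and the number of reads behind it is unknown. Of the 55885 genes listed, the 13815 with at least 1 TPM in at least 3 of the 12 hearts were tested. A gene passed when its adjusted p in limma, which fits all 12 hearts together on the log2(TPM + 1) scale, was under 0.05. Log2 fold changes are STING-/-+CDDP minus CDDP on that scale, given with their standard error (SE). They understate the change of genes with few TPM.

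STING is an adaptor of the membrane of the endoplasmic reticulum. It is switched on by cyclic GMP-AMP, which the sensor cGAS makes when it meets DNA in the cytosol, and it then recruits the kinase TBK1, which activates the transcription factor IRF3 and, by another route, NF-kB. Type I interferon genes, interferon-stimulated genes and inflammatory cytokines lie downstream. Cisplatin, a platinum drug against solid tumours, crosslinks DNA and damages mitochondria, and its toxicity to the heart is a recognised clinical problem. Whether loss of STING changes the transcriptome of the cisplatin-treated heart is the question of this comparison.

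Transcripts of Sting1 itself did not pass the test. Its level was 22.1, 5.62 and 8.81 TPM in CDDP hearts 1 to 3 and 4.26, 4.67 and 3.37 TPM in STING-/-+CDDP hearts 1 to 3. The groups did not overlap, and the log2 fold change was -1.18 ± 0.40 (adjusted p = 0.147 in limma). In an exact two-sided permutation test the difference gave p = 0.1, the smallest value that 3 hearts against 3 allow. Reads were therefore still assigned to the gene in the STING-/- hearts, and the table gives 1 value for the whole gene, so a loss of some exons cannot be seen in it. Checked against heart muscle markers, the samples held them: all 26 ventricular cardiomyocyte genes were tested, and their summed level was 53430 to 72595 TPM in the CDDP hearts and 63823 to 76383 TPM in the STING-/-+CDDP hearts.

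Before the genes are described, 3 features of the 6 hearts need to be given, since they touch several results. The first is that CDDP heart 1 stood apart from the other hearts for neutrophil and inflammatory genes. The summed level of the 20 neutrophil markers in the table reached 2220 TPM in one CDDP heart while the lowest CDDP heart held 229.6 TPM, and the STING-/-+CDDP hearts held 171 to 242 TPM. Lcn2, which encodes the iron-sequestering protein lipocalin 2, read 986, 172 and 261 TPM in CDDP hearts 1 to 3. In addition, the transcripts of the mitochondrial genome took a larger share of the RNA in the STING-/-+CDDP hearts, 23.6 to 27.6%, than in the CDDP hearts, 18.8 to 23.3%, without overlap. Because TPM are shares, a larger mitochondrial share lowers all other genes by a little. The median tested gene had a log2 fold change of -0.09, and 60.4% of tested genes lay below 0. The last is that a set of processed gene copies was read at very different levels in hearts of the same species and tissue.

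The gene for the ribosomal protein S18, Rps18 (GRCm38 chr17:33951999-33956001), shows the last feature best. Its near-identical copies elsewhere in the genome, which differ from it by 3 or 4 of its 456 coding bases, are Rps18-ps3, Rps18-ps5 and Rps18-ps6. Rps18-ps6 read 529.81, 949 and 513 TPM in the 3 CDDP hearts against 1.11, 1.47 and 1.52 TPM in the STING-/-+CDDP hearts, the largest fall of all genes that passed (log2 fold change -8.08 ± 1.38, adjusted p = 0.0259). Rps2-ps10, a copy of the gene for the ribosomal protein S2, came next, at 889, 1514 and 748 TPM and 4.08, 5.83 and 4.36 TPM (-7.46 ± 1.37, adjusted p = 0.0328). Rps18-ps6 also read 1.94, 1.33 and 316 TPM in the 3 Saline hearts and 0.5, 1.26 and 1.18 TPM in the 3 STING-/- hearts, so Saline heart 3 went with the CDDP hearts and the other 2 Saline hearts with the STING-/- hearts. Rps18 itself lay the other way, at 643, 46.1 and 641 TPM in the CDDP hearts and 875, 838 and 663 TPM in the STING-/-+CDDP hearts. The bases 312 to 371 of the coding sequence, counted from 1 at its first base and taken from the GENCODE M21 transcripts, are shown because they hold the base that all 3 copies share and Rps18 lacks, A337C. Capitals mark bases that differ from Rps18.
Rps18: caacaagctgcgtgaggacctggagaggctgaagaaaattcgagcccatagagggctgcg
Rps18-ps3: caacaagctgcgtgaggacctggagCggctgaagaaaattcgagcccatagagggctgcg
Rps18-ps5: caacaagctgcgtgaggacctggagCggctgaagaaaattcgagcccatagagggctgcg
Rps18-ps6: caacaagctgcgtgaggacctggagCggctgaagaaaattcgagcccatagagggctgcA
The other differences were G181C and C430T in Rps18-ps3, T11A and A171C in Rps18-ps5, and T186C, G371A and G431A in Rps18-ps6. How the reads of such a gene and its copies were divided is not given in the sources used here.

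Counted as a share of the summed TPM of Rps18 and its copies, the copies held 47.6, 95.8 and 47.4% in CDDP hearts 1 to 3, 49.0% in Saline heart 3 and at most 0.243% in each of the other 8 hearts. Rps2 and its copies gave nearly the same picture, with 53.4, 97.5 and 52.9% in the CDDP hearts, 52.5% in Saline heart 3 and at most 0.609% elsewhere. Copies of Atp6v0c, Rnps1, Hmga1 and Glo1 did so as well, with CDDP heart 2 the highest each time. All 6 parent genes lie on chromosome 17. Tpt1, whose parent gene lies on chromosome 14, had part of its TPM in copies in every heart. The share was 14.5 to 17.5% in the STING-/-+CDDP hearts and 19.0 to 22.5% in all other hearts. When gene and copies were summed, the log2 fold changes were -0.59 for Rps18, -0.38 for Rps2, -0.49 for Atp6v0c, -0.90 for Rnps1, -0.31 for Glo1 and -0.17 for Hmga1. In all, 11 of the genes that fell (Rps2-ps10, Rps18-ps6, Atp6v0c-ps2, Rps18-ps5, Rnps1-ps, Gm14292, Glo1-ps, Hmga1b, Rps18-ps3, H2-Q1 and Rprl3) read at least 10 times higher in Saline heart 3 than in any other heart without cisplatin. The remaining 107 falls did not meet this rule of 10 times, which a weaker form of the pattern can miss. The part that sequence differences between individual mice play in these 11 was not tested.

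**Figure D1:**
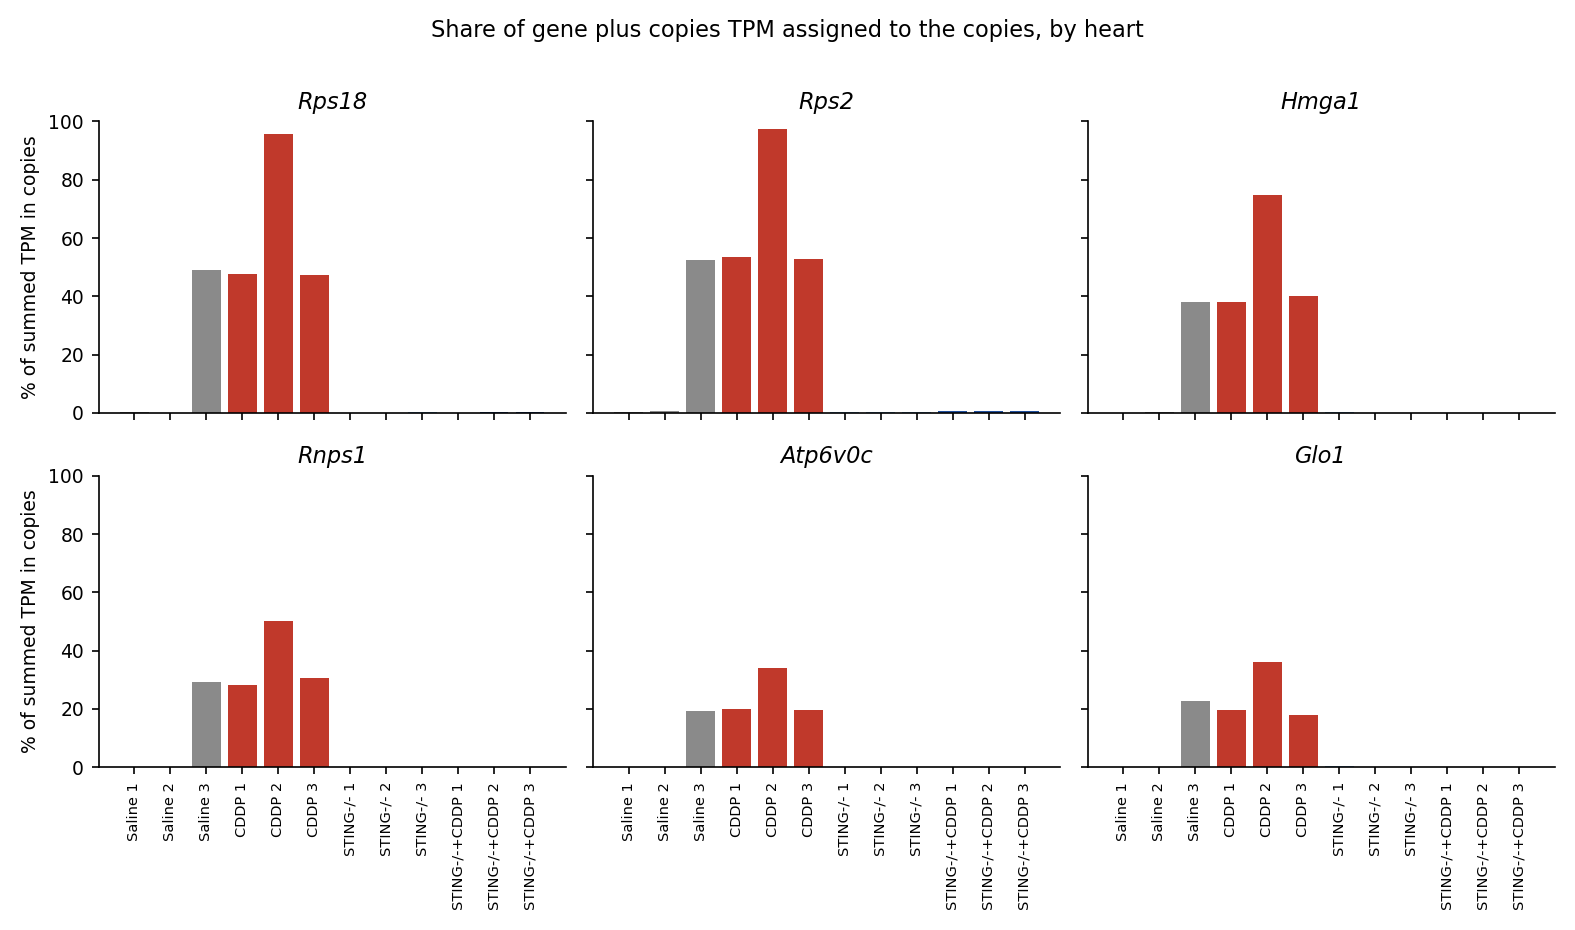
Share of the summed TPM of a gene and its near-identical copies that was assigned to the copies, in percent, for each of the 12 hearts (one bar per heart, coloured by group). In the panels of the 6 parent genes on chromosome 17 the CDDP hearts and Saline heart 3 carry the copies, with CDDP heart 2 highest, and the other hearts are at or near 0.

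Of the 13815 genes tested, 168 passed, or 1.22%. Of these, 50 were higher in STING-/-+CDDP hearts (0.362% of genes tested) and 118 lower (0.854%). In all 168 the 3 hearts of one group lay above the 3 of the other, and over all tested genes this held for 984 in the higher direction (7.12%) and for 2157 in the lower (15.6%). At an unadjusted p under 0.05 in limma stood 1917 of the 13815 genes in the lower direction and 820 in the higher. Counts of this kind in the gene lists below are to be read against that background. The changes that passed were mostly of moderate size. The median log2 fold change was 1.28 among the genes that rose and -1.27 among those that fell, and 37 of the rises and 77 of the falls were at least 1 in size. By their annotated type, protein-coding genes made up 42 of the 50 rises and 79 of the 118 falls. Pseudogenes were 17 of the falls and 0 of the rises, and 11 of the 168 were loci assembled from the reads with no gene name. With Rps18-ps5, Rps18-ps6 and Hmga1b, gene copies annotated as another type, 20 of the falls were pseudogenes or such copies.

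The number of calls depended strongly on single hearts. Without STING-/-+CDDP heart 2 or 3 it dropped to 11 and 12, of which 8 and 11 were among the 168, and without CDDP heart 2, whose gene copies stood apart most, it rose to 388. Without STING-/-+CDDP heart 1 it was 36, without CDDP heart 1 it was 61 and without CDDP heart 3 it was 46. Of the 99 genes that passed and are named in the text, 88 kept an adjusted p under 0.05 without CDDP heart 2, 29 without CDDP heart 1, 25 without CDDP heart 3, and 25, 7 and 9 without STING-/-+CDDP hearts 1, 2 and 3. None changed its direction under any of the alternatives tried. How often a named gene passed is given below as a number out of 24 alternatives, which comprise other scalings, filters and models and each of the 12 hearts left out in turn. With the 6 hearts fitted alone, 38 genes passed.

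**Figure D2:**
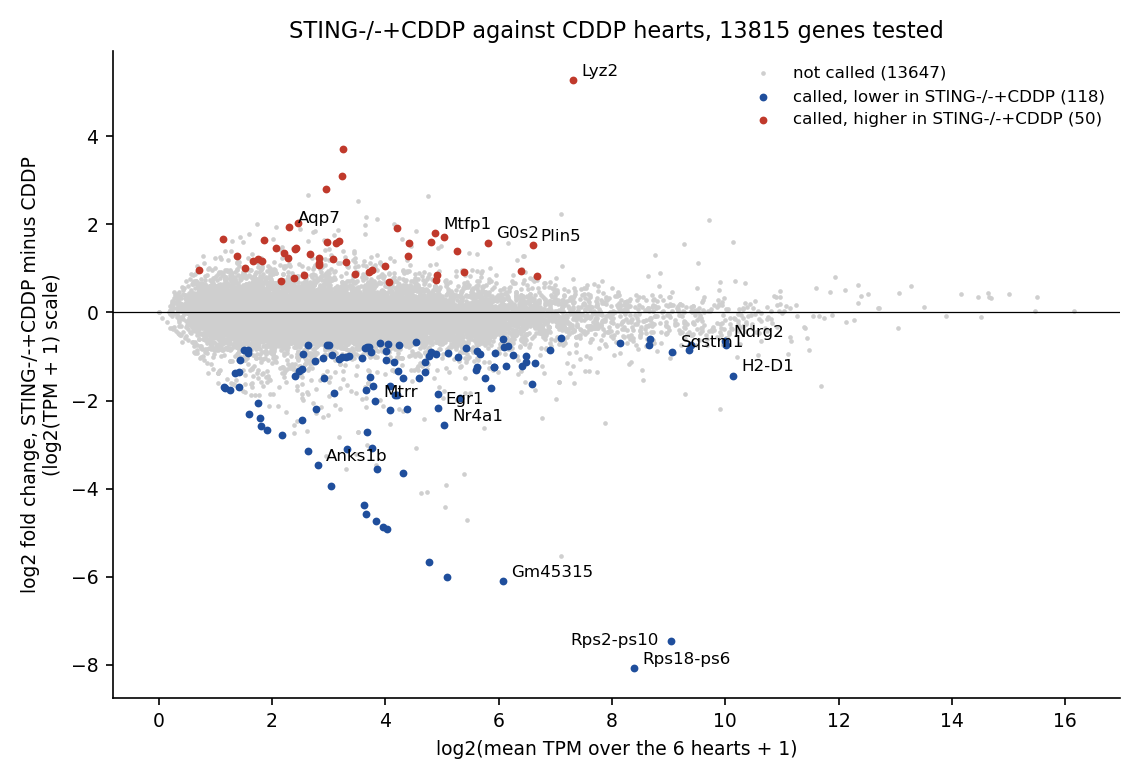
Log2 fold change of each of the 13815 tested genes (STING-/-+CDDP minus CDDP, log2(TPM + 1) scale) against its mean level, log2(mean TPM over the 6 hearts + 1). The 118 genes that fell include gene copies far below the rest, such as Rps18-ps6 at -8.08, and the 50 that rose start at 0.69 and reach 5.27 with Lyz2.

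Immediate-early genes, which cells switch on within minutes of a stimulus without new protein, gave 5 falls. Of 37 tested members of the list of AP-1 and immediate-early genes, 5 fell and 0 rose, 21 had non-overlapping hearts in the lower direction (56.8%, against 15.6% of all tested genes) and 1 in the higher, and the median log2 fold change was -0.80 against -0.09 over all tested genes. The summed level of all 42 genes of the list in the table was 1403 to 1873 TPM in the CDDP hearts and 799 to 1115 TPM in the STING-/-+CDDP hearts. Nr4a1, an orphan nuclear receptor, read 60.9, 31.9 and 74.2 TPM in CDDP hearts 1 to 3 and 8.03, 8.78 and 7.68 TPM in STING-/-+CDDP hearts 1 to 3. The lowest CDDP heart was thus well above the highest STING-/-+CDDP heart, and the log2 fold change was -2.55 ± 0.41 (adjusted p = 0.0216 in limma). Egr1, a zinc-finger transcription factor of the same class of rapid responders, went from 59.5, 38.3 and 48.01 TPM to 9.72, 12.7 and 7.57 TPM, with a log2 fold change of -2.18 ± 0.45 (adjusted p = 0.0452). Both genes were also low in the 3 STING-/- hearts without cisplatin, at 10.8, 9.86 and 5.31 TPM for Nr4a1 and 5.04, 9.09 and 6.03 TPM for Egr1. The 3 Saline hearts read 27.3, 12.2 and 7.71 TPM for Nr4a1 and 21.04, 9.91 and 3.56 TPM for Egr1.

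Sik1, a salt-inducible kinase that restrains CREB coactivators, read 23.9, 31.03 and 30.2 TPM in the CDDP hearts and 10.3, 9.68 and 8.27 TPM in the STING-/-+CDDP hearts, and Btg2, an antiproliferative gene that p53 also induces, read 110.26, 60.4 and 66.2 TPM and 30.7, 29.9 and 20.6 TPM. Their log2 fold changes were -1.49 ± 0.24 and -1.48 ± 0.24 (adjusted p = 0.0216 for both). For Fosl2, which encodes a subunit of the transcription factor AP-1, the levels were 21.5, 24.7 and 31.4 TPM and 11.4, 9.51 and 8.06 TPM and the log2 fold change -1.33 ± 0.18 (adjusted p = 0.0153). The best known member, Fos, missed the threshold at a log2 fold change of -2.13 ± 0.47 (adjusted p = 0.0520), with 38.8, 12.1 and 23.3 TPM in the CDDP and 3.88, 4.36 and 4.75 TPM in the STING-/-+CDDP hearts, and so did Junb at -1.58 ± 0.35 (adjusted p = 0.0520). Both were named after their values were seen. Nr4a1 passed under 18 of 24 alternatives, Egr1 under 12, Sik1 and Btg2 under 19 each and Fosl2 under 21. Of these 5, none passed without STING-/-+CDDP heart 2 or 3, where the adjusted p of Egr1 was highest, at 0.166.

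The promoters of Nr4a1 and Btg2 are shown because the genes moved together and because both hold the short letters TGACG or their reverse complement CGTCA, the core of the cyclic AMP response element that CREB proteins bind. The 250 bases before the start site are from RefSeq (GRCm38.p6), 5′ to 3′ on the strand of the gene, Nr4a1 at chr15:101266596-101266845 on the plus strand and Btg2 at chr1:134079156-134079405 on the minus strand. Capitals mark CGTCA in Nr4a1 and the whole element TGACGTCA in Btg2.
Nr4a1: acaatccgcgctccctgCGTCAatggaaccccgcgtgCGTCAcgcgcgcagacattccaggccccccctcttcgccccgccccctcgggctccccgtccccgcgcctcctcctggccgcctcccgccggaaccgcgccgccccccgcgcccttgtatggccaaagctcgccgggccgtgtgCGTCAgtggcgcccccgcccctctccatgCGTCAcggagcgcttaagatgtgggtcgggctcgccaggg
Btg2: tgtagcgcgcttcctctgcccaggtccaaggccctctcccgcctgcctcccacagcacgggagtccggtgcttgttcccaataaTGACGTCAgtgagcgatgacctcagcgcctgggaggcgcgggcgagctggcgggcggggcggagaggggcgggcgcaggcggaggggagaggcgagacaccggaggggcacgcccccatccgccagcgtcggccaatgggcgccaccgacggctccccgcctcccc
In Nr4a1 the 4 matches begin at -233, -213, -69 and -40 from the start site, and in Btg2 the whole element spans -166 to -159. Fosl2 had no match in its window, and no window of Egr1 or Sik1 was used here. On either strand TGACG stood in 26.8% of the 10130 windows of tested genes, in 29 of the 69 windows of genes that fell (42%) and in 9 of the 35 windows of genes that rose (25.7%), and the whole element in 2.6% of the 10130, in 2 of the 69 (2.9%) and in 0 of the 35. Among the 30 windows of tested AP-1 and immediate-early genes, whether they fell or not, TGACG stood in 15 (50%) and the whole element in 2 (6.67%). The short letters are thus common in this class. They were also more frequent in the windows of all genes that fell than in those of all tested genes, and their part in the falls was not tested. The letters TATAAA, the TATA box, stood in 6.8% of all windows, in 11 of the 69 (15.9%) and in 2 of the 35 (5.71%). The AP-1 site, TGACTCA or TGAGTCA, stood in 3% of all windows, in 4 of the 69 (5.8%) and in 2 of the 35 (5.71%). The serum response element, known as the CArG box, was in 0 windows of genes that fell and in 1.18% of all windows. A match of letters is a description of the sequence only.

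**Figure D3:**
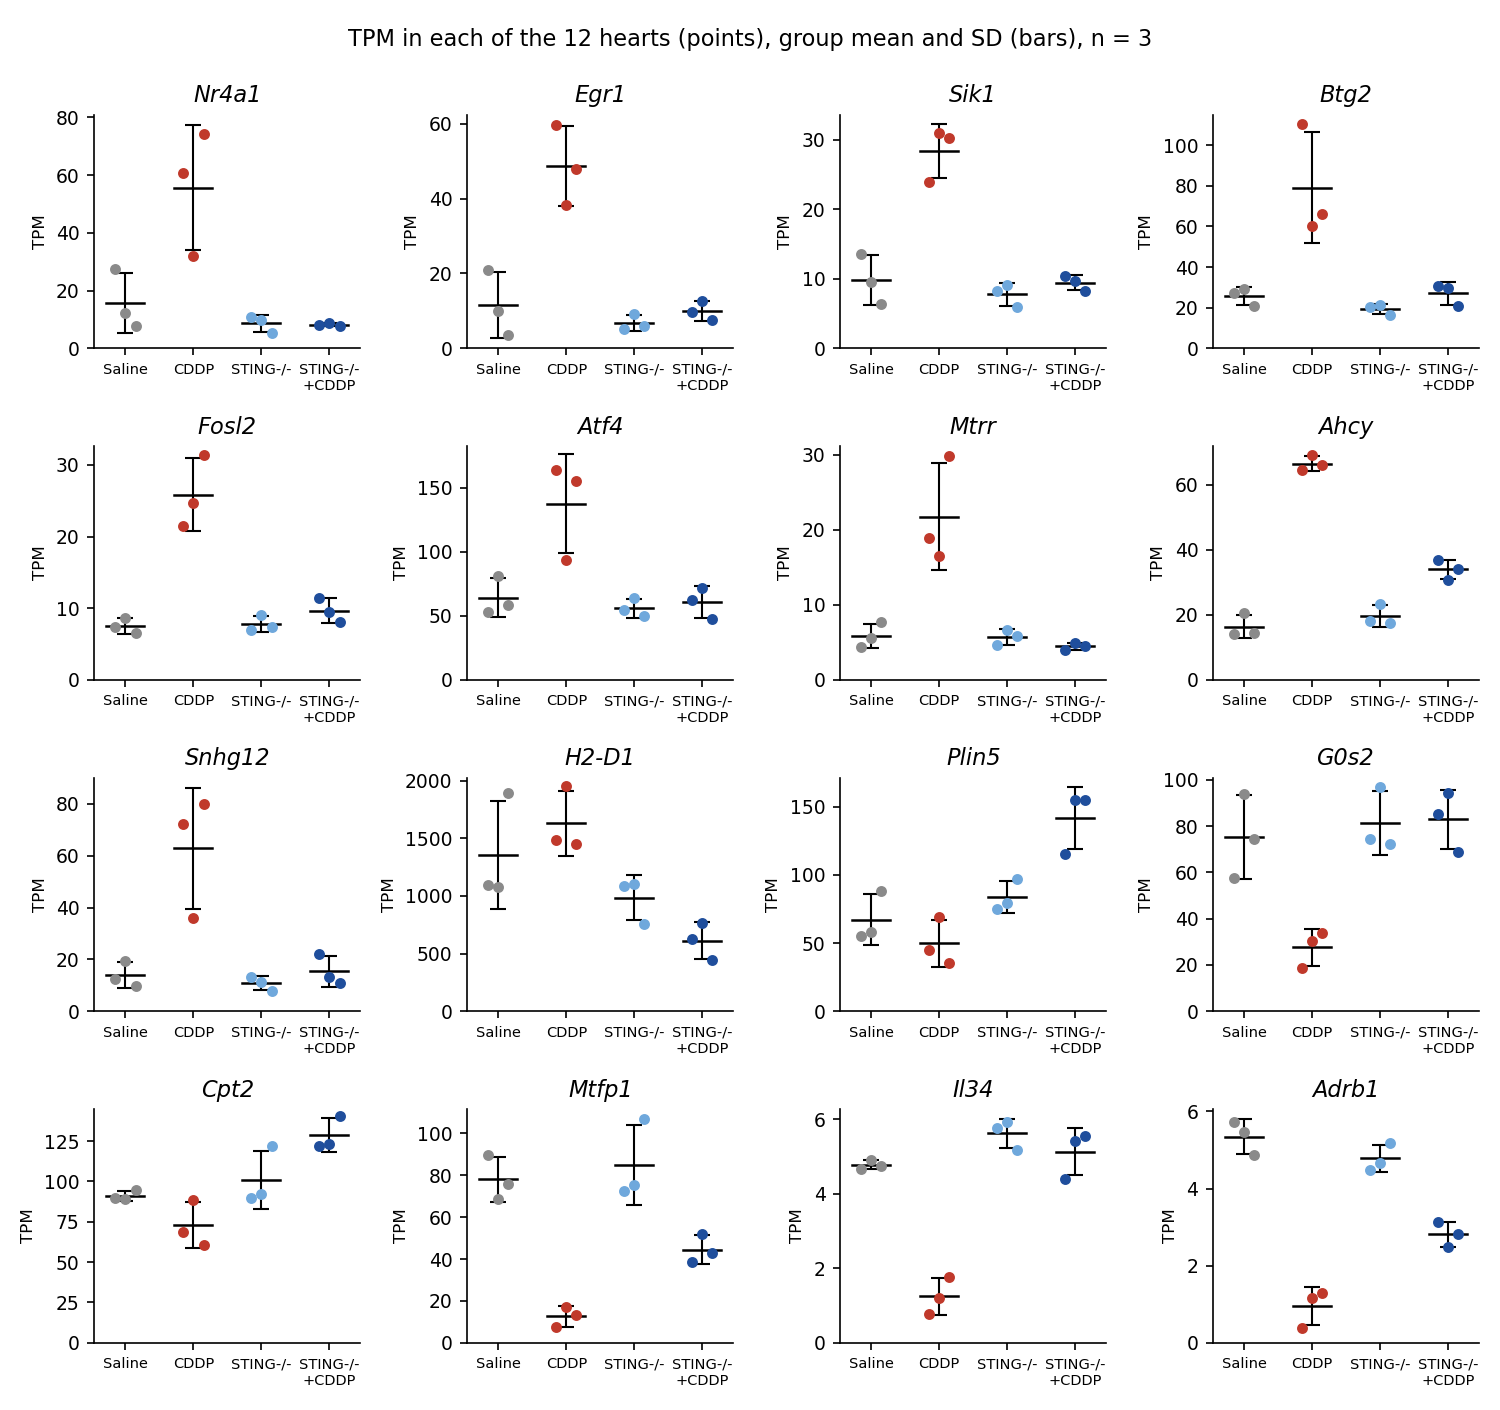
TPM of selected genes in each of the 12 hearts (points; x axis, the 4 groups) with the group mean and SD as bars (n = 3). For Nr4a1, Egr1, Mtrr and the other genes that fell the 3 STING-/-+CDDP hearts all lie under the 3 CDDP hearts, and for Plin5, Cpt2 and the other genes that rose they all lie above.

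Further regulators fell beside them, of which Pim1, Crem, Ifrd1, Arid5a and Apold1 were named after their values were seen. Pim1, a growth-promoting kinase, read 47.8, 24.8 and 36.7 TPM in the CDDP and 14.4, 13.3 and 12.1 TPM in the STING-/-+CDDP hearts (log2 fold change -1.35 ± 0.22, adjusted p = 0.0216). Crem, a CREB family member with repressor isoforms, had very little spread within groups, at 14.8, 14.6 and 16.03 TPM and 8.58, 8.32 and 8.17 TPM, and fell by a log2 value of 0.79 (adjusted p = 0.0341). Ifrd1, a transcriptional coregulator, read 128, 115 and 187 TPM and 57.05, 47.2 and 34.01 TPM (log2 fold change -1.62 ± 0.25). Arid5a, which encodes an RNA-binding protein known to stabilise Il6 mRNA, had a log2 fold change of -1.67 ± 0.34 and Apold1, an endothelial early-response gene, one of -1.46 ± 0.27. Irs2, the insulin receptor substrate that links the receptor to PI3-kinase, was among the 12 largest falls at 9.81, 25.5 and 20.95 TPM and 4.43, 4.36 and 4.51 TPM (log2 fold change -1.76 ± 0.28, adjusted p = 0.0216). Camk2b, the beta chain of calcium/calmodulin-dependent kinase II, was too, at 48.3, 16.7 and 18.1 TPM and 7.59, 6.08 and 4.66 TPM (-1.87 ± 0.36). Adamts1, a secreted metalloprotease, was the only one of 39 tested collagen and matrix genes to pass in either direction, at 53.6, 18.8 and 34.1 TPM and 12.6, 12.2 and 8.39 TPM (-1.50 ± 0.31, adjusted p = 0.0452).

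Mtrr was the only gene with a full name among the 4 named genes that passed under every alternative. It encodes methionine synthase reductase, the enzyme that keeps the cobalamin cofactor of methionine synthase active. Its level was 18.9, 16.5 and 29.9 TPM in CDDP hearts 1 to 3 and 3.97, 4.92 and 4.48 TPM in STING-/-+CDDP hearts 1 to 3, so that every CDDP heart lay well above every STING-/-+CDDP heart. The log2 fold change was -2.02 ± 0.24 (adjusted p = 0.00780 in limma), and the gene passed under all 24 alternatives, with adjusted p from 0.00228 to 0.0495. The 3 Saline hearts read 4.4, 5.54 and 7.65 TPM and the 3 STING-/- hearts 4.58, 6.68 and 5.82 TPM, with a log2 fold change of -0.02 between them. Ahcy, which encodes adenosylhomocysteinase of the same methionine cycle and was named after its values were seen, was close to constant within groups, at 64.4, 69.05 and 66.1 TPM and 36.9, 30.8 and 34.2 TPM (log2 fold change -0.95 ± 0.17, adjusted p = 0.0266). Without STING-/-+CDDP heart 2 the adjusted p of Ahcy was 0.116.

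Of 40 tested genes of the integrated stress response, in which a block of general translation raises the transcription factor ATF4, 2 fell and 0 rose, with a median of -0.25. Over all tested genes 0.854% fell. Hearts did not overlap in the lower direction for 10 of the 40 (25%, against 15.6% of all tested genes) and in the higher for 2 (5%, against 7.12%). Atf4 itself read 164, 93.5 and 155 TPM in the CDDP and 62.6, 71.99 and 47.4 TPM in the STING-/-+CDDP hearts (log2 fold change -1.15 ± 0.24, adjusted p = 0.0462), and it passed under 8 of 24 alternatives. Ppp1r15a, also called GADD34, which directs the phosphatase that ends the response, read 46.4, 50.02 and 56.3 TPM and 24.9, 29.97 and 19.8 TPM (-1.02 ± 0.19, adjusted p = 0.0341) and passed under 16. Sqstm1, the autophagy adaptor p62, was among the most abundant genes that fell, at 525, 818 and 752 TPM and 380.13, 359 and 371 TPM (-0.89 ± 0.19, adjusted p = 0.0462), and passed under 10. The highest adjusted p of the 3 genes on leaving out a heart was 0.171 for Atf4, without STING-/-+CDDP heart 3. Of 37 tested NRF2 antioxidant and metallothionein genes 0 passed, 9 lower and 2 higher had an unadjusted p under 0.05, and the smallest p among them belonged to Txnrd1, thioredoxin reductase 1, at 53.8, 33.6 and 46.8 TPM and 24.4, 24.6 and 18.8 TPM (-0.94 ± 0.22, adjusted p = 0.0574). In the list of 27 tested genes of the unfolded protein response 0 passed too, with 3 lower and 7 higher at an unadjusted p under 0.05, and its median was 0.03. Hearts did not overlap in the higher direction for 9 of the 27 (33.3%, against 7.12% of all tested genes) and in the lower for 4 (14.8%, against 15.6%).

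Genes of the machinery that makes proteins formed the broadest shift in level, though few passed one by one. Of 87 tested cytosolic ribosomal protein genes 5 fell and 0 rose, yet in 73 of them (83.9%, against 15.6% of all tested genes) every STING-/-+CDDP heart lay below every CDDP heart. Summed, all 91 such genes in the table held 63647 to 73006 TPM in the CDDP hearts and 46643 to 55611 TPM in the STING-/-+CDDP hearts, and the median log2 fold change of those tested was -0.43. Rps29 was the most abundant of the 5, at 1295, 1240.47 and 1339 TPM and 921, 768 and 662 TPM (-0.73 ± 0.13, adjusted p = 0.0266). Rps19, Rps13 and Rpl30 had log2 fold changes of -0.75 ± 0.15, -0.70 ± 0.14 and -0.61 ± 0.13, and Rpl22l1, a paralog of the ribosomal protein L22, one of -1.25 ± 0.25. Ribosomal protein genes have many near-identical copies, so how their reads were divided bears on each single value. With the copies added to the parent gene Rps13 and Rpl30 kept their direction but missed the threshold, at log2 fold changes of -0.38 (adjusted p = 0.114) and -0.61 (adjusted p = 0.0532).

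Mphosph10, Dcaf13 and Gnl2, which act in ribosome assembly, were named after their values were seen, and no list of such factors was counted. Mphosph10, of the complex that processes small-subunit RNA, had a log2 fold change of -1.02 ± 0.16, Dcaf13 of -0.69 ± 0.14 and the nucleolar GTPase Gnl2 of -0.66 ± 0.14 (adjusted p = 0.0216, 0.0452 and 0.0492). Of 65 tested translation initiation and elongation factors 1 fell, next to 0.854% of all tested genes, and the median was -0.33. Hearts did not overlap in the lower direction for 31 of the 65 (47.7%, against 15.6% of all tested genes). The one was Eif1, which guards start codon choice, at 767, 829.51 and 940.11 TPM and 533, 486 and 488 TPM (-0.75 ± 0.15, adjusted p = 0.0420). Impdh2, the rate-limiting enzyme of guanine nucleotide synthesis, had a log2 fold change of -0.92 ± 0.20 (adjusted p = 0.0497) and was also named after its values were seen.

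Host genes of small nucleolar RNAs, whose introns carry the guides that modify ribosomal RNA, had log2 fold changes below 0 throughout. Of 15 tested Snhg, Gas5 and Zfas1 genes, grouped after their values were seen, 11 had non-overlapping hearts in the lower direction (against 15.6% of all tested genes) and 3 fell (against 0.854%). Snhg12 read 72.1, 36.1 and 80.05 TPM in the CDDP and 22.1, 13.2 and 10.98 TPM in the STING-/-+CDDP hearts (log2 fold change -1.93 ± 0.35, adjusted p = 0.0303), Zfas1 97.9, 51.6 and 114 TPM and 39, 22.3 and 17.2 TPM (-1.71 ± 0.35, adjusted p = 0.0452), and Snhg6 77.9, 71.7 and 101 TPM and 37.8, 38.2 and 28.3 TPM (-1.24 ± 0.19, adjusted p = 0.0216). The most abundant of them, Gas5, missed the threshold at -1.33 ± 0.31 (adjusted p = 0.0581), with 289.86, 170.17 and 369.85 TPM and 145, 96.6 and 79.7 TPM. Taf1d, another host gene named after its values were seen, which encodes a subunit of the RNA polymerase I factor SL1, had 33.6, 12.3 and 29.2 TPM and 9.76, 5.18 and 5.47 TPM (-1.67 ± 0.32, adjusted p = 0.0347). Within the CDDP group, heart 2 was the lowest for Snhg12, Zfas1, Gas5 and Taf1d.

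Proteasome subunits and splicing factors showed the same broad, small shift. Of 32 tested proteasome subunits 2 fell, next to 0.854% of all tested genes. Hearts did not overlap in the lower direction for 23 (71.9%, against 15.6% of all tested genes) and in the higher for 0. The summed level was 3406 to 3731 TPM in the CDDP and 2652 to 2955 TPM in the STING-/-+CDDP hearts. The 2 were Adrm1, a ubiquitin receptor of the proteasome (-0.60 ± 0.12, adjusted p = 0.0432), and Psmc1, one of its ATPases, at 158, 155 and 178 TPM and 116, 114 and 96.2 TPM (-0.59 ± 0.12, adjusted p = 0.0452). Of 68 tested spliceosome genes 1 fell, Hnrnpa1, at 140.04, 154 and 165 TPM and 93.1, 79.4 and 81.7 TPM (-0.85 ± 0.16, adjusted p = 0.0347). The median of the 68 was -0.40, and hearts did not overlap in the lower direction for 35 of them (51.5%, against 15.6% of all tested genes). Other RNA-binding factors fell outside the lists and were named after their values were seen: Cirbp, the cold-inducible RNA-binding protein (-0.96 ± 0.16), Cpsf6 of the cleavage and polyadenylation machinery (-0.81 ± 0.16) and Snd1, a nuclease of the RNA-silencing machinery (-1.30 ± 0.22). Snd1 was almost without spread in the STING-/-+CDDP hearts, at 78.7, 57.1 and 68.4 TPM in the CDDP and 26.9, 27.02 and 26.5 TPM in the STING-/-+CDDP hearts. All of these medians moved towards 0 but kept their sign when the mitochondrial share was taken out or the hearts were rescaled, the ribosomal one to at most -0.25, the proteasome one to -0.22 and the spliceosome one to -0.26.

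Genes that copy and package DNA gave 3 named falls. Pcna, the sliding clamp of DNA polymerase, read 51.7, 45.6 and 63.4 TPM in the CDDP and 32.8, 33.4 and 24.6 TPM in the STING-/-+CDDP hearts (-0.80 ± 0.17, adjusted p = 0.0496). It was the only one of 24 tested proliferation genes to pass, and those 24 had a median of -0.09, like all tested genes. H4c9 and Hist1h4n, both histone H4 genes, read 36.4, 28.2 and 19.2 TPM and 12.3, 5.16 and 13.1 TPM in the CDDP and 8.89, 7.57 and 4.33 TPM and 0, 0.66 and 0 TPM in the STING-/-+CDDP hearts (-1.87 ± 0.31 and -3.15 ± 0.58). Histone H4 genes are near copies of one another, so reads between them are uncertain. Wapl, which releases cohesin from chromatin, had a log2 fold change of -0.78 ± 0.16 (adjusted p = 0.0460) and was named after its values were seen. Of 34 tested p53 target genes only Btg2 passed, and the median was -0.19.

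No gene of the STING pathway or of its interferon output passed in limma. Of 20 tested genes of the cGAS-STING pathway 3 had an unadjusted p under 0.05, all lower, next to 1917 lower of the 13815 tested genes, and the median was -0.16. Hearts did not overlap in the lower direction for 2 of the 20 (10%, against 15.6% of all tested genes). The smallest p of the list was that of Tbk1, the kinase downstream of STING, at 15.1, 12.99 and 18.05 TPM in the CDDP and 10.8, 9.72 and 7.69 TPM in the STING-/-+CDDP hearts (-0.65 ± 0.17, adjusted p = 0.0806). Of 46 tested type I interferon-stimulated genes 1 had an unadjusted p under 0.05, 1 had non-overlapping hearts in each direction and the median was 0.02. Their summed level was 399 to 567 TPM in the CDDP hearts and 498 to 659.95 TPM in the STING-/-+CDDP hearts, and it was 1098 to 1680 TPM in the Saline and 1417 to 2023 TPM in the STING-/- hearts. Of 14 tested interferon-inducible GTPases 0 had an unadjusted p under 0.05 (median 0.06). Ifnb1, the interferon beta gene, was listed at 0 in all 12 hearts.

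Antigen presentation genes split. H2-D1, a classical MHC class I heavy chain, was the most abundant gene that fell, at 1487, 1951 and 1447 TPM in the CDDP and 628, 763 and 446 TPM in the STING-/-+CDDP hearts (-1.43 ± 0.26, adjusted p = 0.0303 in limma). The 3 Saline hearts read 1095, 1077 and 1891 TPM and the 3 STING-/- hearts 1089.91, 1102 and 760.43 TPM. Saline heart 3 thus lay within the range of the CDDP hearts and above every other heart without cisplatin. This is the order of hearts seen for the gene copies above, in a weaker form. H2-T24, a non-classical class I gene named after its values were seen, went the other way, at 1.11, 1.83 and 1.89 TPM and 5.82, 6 and 4.99 TPM (1.35 ± 0.22, adjusted p = 0.0216). H2-D1 was the only one of the 18 tested genes of the MHC class I and immunoproteasome list to pass, and the median of the list was -0.05, which became 0.13 under one of the other scalings. The class I genes are near copies of one another and differ between mouse strains, and all 3 named here, H2-D1, H2-T24 and H2-Q1, lie on chromosome 17. There 11 of 658 tested genes passed (1.67%, against 1.22% of all tested genes and 1.68% on chromosome 4). Decr2, Pim1 and Sik1 are among these 11 too. They start at bases 26081208, 29490753 and 31844250, between Rps2 (24718116) and Rps18 (33951999), parent genes of the copies above. The part of this position in their results was not tested. For the 6 tested MHC class II genes the median was 0.61, with 0 passing and 2 at an unadjusted p under 0.05. H2-Ab1 read 5.45, 5.55 and 10.04 TPM and 14.95, 23.1 and 15.4 TPM (1.25 ± 0.43, adjusted p = 0.144).

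Of 45 tested NF-kB and TNF response genes 0 passed, 11 had an unadjusted p under 0.05, all lower, 11 had non-overlapping hearts in the lower direction (24.4%, against 15.6% of all tested genes) and 0 in the higher, and the median was -0.48. It ranged from -0.64 to -0.32 when each heart was left out in turn. The sum over all 51 genes of the list in the table was 546 to 1132 TPM in the CDDP hearts and 406 to 598 TPM in the STING-/-+CDDP hearts. The 3 members with the smallest p were Cxcl1, Nfkb2 and Tnfaip3. Over the alternatives their log2 fold changes ran from -2.20 to -1.22, from -0.82 to -0.51 and from -1.46 to -0.68. Cxcl1 passed under 1 of 24 alternatives, Nfkb2 under 0 of 24 and Tnfaip3 under 0 of 23. Outside the list, Tlr4, the receptor for bacterial lipopolysaccharide, fell, at 9.39, 11.6 and 12.6 TPM and 4.98, 6.69 and 3.29 TPM (-1.06 ± 0.22, adjusted p = 0.0469); it was named after its values were seen. Il6 was at 5.05, 0.34 and 0.38 TPM in CDDP hearts 1 to 3 and 0.07, 0.29 and 0.18 TPM in the STING-/-+CDDP hearts, Il1b at 10.7, 0.36 and 0.92 TPM and 0.23, 0.3 and 0.33 TPM and Cxcl10 at 2.21, 2.51 and 1.5 TPM and 1.3, 0.63 and 0.66 TPM. In limma, Il1b (-1.28 ± 0.71, adjusted p = 0.340) and Cxcl10 (-0.73 ± 0.37, adjusted p = 0.302) did not pass, and Il6 was under the filter on low TPM. Each of the 3 gave p = 0.1 in the exact permutation test, the smallest it allows, and CDDP heart 1 was highest for Il6 and Il1b. Tnf, also under the filter on low TPM, read 0.75, 0.42 and 0.48 TPM in the CDDP hearts and 0.45, 0.58 and 0.26 TPM in the STING-/-+CDDP hearts. Its p in the exact permutation test was 0.5. The neutrophil list had a median of -1.21 over its 11 tested genes with CDDP heart 1 and of -0.11 without it, and 0 genes passed with it, with 2 at an unadjusted p under 0.05.

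Markers of other cell types gave few calls. In bulk tissue fewer cells of a type and less RNA per cell cannot be told apart. Of 30 tested macrophage and monocyte markers only Lyz2 passed, the lysozyme gene of myeloid cells, which is described with the genotype differences also seen without cisplatin. Of 26 endothelial markers 0 passed (unadjusted p under 0.05 in 5 higher and 1 lower), with a median of 0.20 and summed levels of 3076 to 3524 TPM in the CDDP and 3679 to 4159 TPM in the STING-/-+CDDP hearts, which did not overlap. Of 13 tested lymphocyte markers 0 passed (unadjusted p under 0.05 in 2, both lower), and all 26 of the list in the table summed to 53.3 to 64.4 TPM in the CDDP and 18.9 to 33.8 TPM in the STING-/-+CDDP hearts. Igkc, the kappa light chain of antibodies, read 12.7, 25.2 and 43.3 TPM and 11.1, 0.77 and 2.93 TPM (-2.52 ± 0.72, adjusted p = 0.0994). Of 20 fibroblast markers 0 passed (median 0.34), of 14 smooth muscle and pericyte markers 0 (0.05) and of 16 fat cell markers 0 (0.25), each with 1 lower and 2 higher at an unadjusted p under 0.05. Adipose genes bear on the lipid genes below. Of the 16 tested, 10 had log2 fold changes above 0, and 4 had non-overlapping hearts in the higher direction (25%, against 7.12% of all tested genes) and 1 in the lower. Lipe, the hormone-sensitive lipase, read 20.7, 40.1 and 20.99 TPM and 44.3, 42.96 and 54 TPM (0.83 ± 0.24, adjusted p = 0.108), and Thrsp, a regulator of lipid synthesis, 16.9, 30.1 and 26.4 TPM and 42.6, 44.01 and 32.5 TPM (0.71 ± 0.28, adjusted p = 0.198). Plin4, a lipid droplet coat protein, read 86.6, 194 and 183 TPM and 93.8, 76.8 and 85.4 TPM (-0.77 ± 0.32, adjusted p = 0.212). The sum over all 21 fat cell markers in the table was 907 to 1142 TPM in the CDDP and 1147 to 1257 TPM in the STING-/-+CDDP hearts, without overlap, and its part in the lipid results was not tested. The 16 tested atrial genes had a median of -0.63, which ran from -1.01 to 0.21 as hearts were left out. The summed level of all 17 atrial genes in the table was 8074 to 24869 TPM in the CDDP and 7471 to 17580 TPM in the STING-/-+CDDP hearts, and its part in the other results was not tested.

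Cd248, a marker of pericytes and fibroblasts (endosialin) named after its values were seen, rose, at 1.54, 1.66 and 2.43 TPM in the CDDP and 6.47, 6.71 and 4.21 TPM in the STING-/-+CDDP hearts (1.23 ± 0.25, adjusted p = 0.0452). Il34, another ligand of the macrophage growth factor receptor CSF1R, did too, at 0.76, 1.21 and 1.76 TPM and 4.4, 5.43 and 5.56 TPM (1.47 ± 0.18, adjusted p = 0.00780), and it passed under 23 of 24 alternatives. Ltc4s, the leukotriene C4 synthase, read 2.26, 4.8 and 2.93 TPM and 11.7, 17.1 and 7.76 TPM (1.59 ± 0.28, adjusted p = 0.0266). One of the genes annotated as Ccl21a (ENSMUSG00000094686), a chemokine that draws lymphocytes and dendritic cells, read 5.72, 5.52 and 9.14 TPM and 28.4, 34.8 and 21.2 TPM (1.91 ± 0.28, adjusted p = 0.0188). Ccl21 genes exist as several near-identical copies, so its level is uncertain. Lgals4, which encodes galectin 4, read 8.62, 16.1 and 14.3 TPM and 47.7, 31.04 and 44.8 TPM (1.61 ± 0.24) and was also 1.27 higher on the log2 scale in STING-/- than in Saline hearts.

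Several of the named rises were genes of fatty acid and lipid use. Plin5, the perilipin that coats lipid droplets of oxidative muscle and tethers them to mitochondria, read 45.1, 69.2 and 35.5 TPM in CDDP hearts 1 to 3 and 115, 155 and 155 TPM in STING-/-+CDDP hearts 1 to 3 (1.53 ± 0.25, adjusted p = 0.0216 in limma). G0s2, an inhibitor of the lipase that opens those droplets, read 18.5, 30.3 and 33.9 TPM and 85.3, 94.3 and 68.9 TPM (1.58 ± 0.24, adjusted p = 0.0202). Aqp7, the channel through which glycerol crosses the membrane, read 0.33, 2.24 and 0.76 TPM and 4.38, 7.03 and 8.9 TPM (1.94 ± 0.38, adjusted p = 0.0421). All 3 are among the 12 largest rises, and CDDP heart 2 was the highest of its group for Plin5 and Aqp7. Plin5 passed under 18 of 24 alternatives, G0s2 under 19 and Aqp7 under 11, and without STING-/-+CDDP heart 3 the adjusted p of Aqp7 was 0.157.

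The next 6 genes, which act in lipid metabolism, were named after they were seen to have risen, and no list of fatty acid oxidation genes was counted. Decr2, a peroxisomal reductase for unsaturated fatty acids, read 1.78, 1.64 and 2.21 TPM and 6.75, 7.31 and 6.3 TPM (1.44 ± 0.19, adjusted p = 0.0147) and lost its call under 1 alternative only, without STING-/-+CDDP heart 2, at an adjusted p of 0.0704. Ehhadh, the peroxisomal bifunctional enzyme, read 3.33, 6.11 and 6.53 TPM and 12.5, 10.96 and 14.3 TPM (1.14 ± 0.21, adjusted p = 0.0330). Cpt2, which frees acyl groups from carnitine inside mitochondria, read 68.9, 88.6 and 60.8 TPM and 122, 123 and 141 TPM (0.83 ± 0.16, adjusted p = 0.0392). Slc22a5, the carnitine importer of the cell membrane, and Slc25a42, the mitochondrial carrier of coenzyme A, had log2 fold changes of 0.87 ± 0.18 and 1.06 ± 0.18 (adjusted p = 0.0452 and 0.0266). Gpam, which starts triglyceride synthesis at the outer mitochondrial membrane, read 12.7, 32.7 and 17.9 TPM and 51.4, 48.7 and 61 TPM (1.40 ± 0.28, adjusted p = 0.0450).

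Read as a list, 33 tested PPAR-driven and fasting genes gave 1 rise, Plin5, and 0 falls, with 9 having non-overlapping hearts in the higher direction (27.3%, against 7.12% of all tested genes) and 0 in the lower. The median was 0.32, from 0.18 to 0.58 as hearts were left out. Summed, all 35 genes of the list in the table held 9252 to 15916 TPM in the CDDP hearts and 14651 to 17602 TPM in the STING-/-+CDDP hearts. These ranges overlapped, and the highest CDDP sum was that of CDDP heart 2. The 3 further members with the smallest p were Ucp3, a mitochondrial carrier that responds to fatty acids (7.66, 14.6 and 1.57 TPM and 39.2, 34.5 and 59.1 TPM, adjusted p = 0.0520), Angptl4, an inhibitor of lipoprotein lipase (2.24, 4.13 and 5.13 TPM and 14.6, 11.5 and 31.6 TPM, adjusted p = 0.0629), and Fabp3, the fatty acid binding protein of heart muscle (2118, 4042 and 2518 TPM and 4342, 5226 and 5132 TPM, adjusted p = 0.0635). In all 3 the lowest STING-/-+CDDP heart was above the highest CDDP heart. Between CDDP and Saline the same list had a median log2 fold change of 0.05, a comparison that shares the CDDP hearts.

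Of the other mitochondrial genes, only single ones passed, while the mitochondrially encoded genes shifted upwards as a set. Mtfp1, a protein of the inner membrane that promotes mitochondrial fission, read 7.35, 17.1 and 13.2 TPM in the CDDP and 38.4, 52.1 and 42.8 TPM in the STING-/-+CDDP hearts (1.80 ± 0.26, adjusted p = 0.0188) and passed under 20 of 24 alternatives. Mrps12, a protein of the small mitochondrial ribosomal subunit, read 27.4, 26.5 and 29.8 TPM and 51.96, 57.6 and 51.8 TPM (0.92 ± 0.12, adjusted p = 0.0133) and passed under 22. It was the only one of 78 tested mitochondrial ribosomal protein genes to pass, and the median of the 78 was 0.03. Hearts did not overlap in the higher direction for 15.4% of the 78 and in the lower for 11.5%, against 7.12% and 15.6% of all tested genes. Named after their values were seen, Sdhaf4, an assembly factor of succinate dehydrogenase, rose by 0.84 ± 0.17, Coq3, an enzyme of ubiquinone synthesis, by 0.69 ± 0.14, and Tomm40l, a paralog of the import pore TOM40, by 0.73 ± 0.14 on the log2 scale. Ndufa4l2, a paralog of a respiratory chain subunit that hypoxia induces, read 8.27, 14.1 and 11.7 TPM and 23.8, 37.7 and 25.1 TPM (1.27 ± 0.25, adjusted p = 0.0402). Of 80 tested nuclear-encoded respiratory chain subunits 0 passed (median 0.06, with 5 higher and 1 lower at an unadjusted p under 0.05), and 10% had non-overlapping hearts in the higher direction and 5% in the lower. Of 11 tested mitochondrially encoded genes 0 passed (median 0.34, with 5 higher). Hearts did not overlap in the higher direction for 5 of the 11 (45.5%, against 7.12% of all tested genes) and in the lower for 0. Among them mt-Co1, a subunit of cytochrome oxidase, read 25386, 33175 and 27010.3 TPM and 34286, 37376 and 41519 TPM (0.41 ± 0.13, adjusted p = 0.118).

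Of the ion channel genes 1 rose. Scn4b, a beta subunit of the voltage-gated sodium channel, was the only one of 30 tested ion channel and gap junction genes to pass, at 2.64, 2.03 and 3.07 TPM and 11.4, 6.88 and 6.24 TPM (1.33 ± 0.25, adjusted p = 0.0347), and the median of that list was 0.35. Named after their values were seen, Scn4a, the pore-forming sodium channel of skeletal muscle, read 0.19, 0.72 and 0.65 TPM and 2.32, 2.87 and 2.83 TPM (1.29 ± 0.21, adjusted p = 0.0216). Of 12 tested skeletal muscle markers 0 passed, 1 lower and 1 higher had an unadjusted p under 0.05, 3 had non-overlapping hearts in the higher direction (25%) and 1 in the lower, and the median was 0.40. All 20 of those markers in the table summed to 885 to 1076 TPM in the CDDP and 1243 to 1713 TPM in the STING-/-+CDDP hearts, without overlap, and the part of skeletal muscle RNA in the Scn4a result was not tested. Also named after their values were seen, Adrb1, the beta-1 adrenergic receptor through which noradrenaline drives the heart, read 0.38, 1.17 and 1.28 TPM and 3.14, 2.49 and 2.83 TPM (1.01 ± 0.20, adjusted p = 0.0400), and Pde4a, a phosphodiesterase that breaks down cyclic AMP, 2.59, 5.14 and 4.8 TPM and 10.2, 12.6 and 9.32 TPM (1.21 ± 0.25). Adrb1 is close to the filter of 1 TPM, where log2(TPM + 1) understates a ratio. Of 24 tested calcium handling genes 0 passed, 1 had an unadjusted p under 0.05, and the smallest p was that of Casq2, the calcium buffer of the sarcoplasmic reticulum, at 90.4, 104 and 162 TPM and 208, 221 and 164 TPM (0.76 ± 0.21, adjusted p = 0.0859). Hjv, which encodes hemojuvelin, an iron-regulating coreceptor of muscle and liver, was nearly constant in the CDDP hearts at 56.6, 53.6 and 57.7 TPM and read 121, 108 and 99.1 TPM in the STING-/-+CDDP hearts (0.95 ± 0.14, adjusted p = 0.0188). Gamt, the last enzyme of creatine synthesis, rose by 1.17 ± 0.21 on the log2 scale, at 0.75, 1.85 and 1 TPM and 3.36, 4.25 and 3.92 TPM. Both were named after their values were seen.

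The remaining genes that the naming rule gives were of mixed function. Rbp7, a retinol-binding protein of endothelial and fat cells, read 7.32, 13.9 and 8.6 TPM in the CDDP and 25.01, 33.6 and 33.4 TPM in the STING-/-+CDDP hearts (1.57 ± 0.31, adjusted p = 0.0444). Cntnap5b, a contactin-associated protein, and Prag1, a pseudokinase, rose by 1.61 ± 0.22 and 1.47 ± 0.24 on the log2 scale and passed under 21 and 19 of 24 alternatives, and Inafm1 rose by 1.66 ± 0.33, from 0, 0 and 0.16 TPM to 2.31, 2.84 and 1.89 TPM. After Lyz2, the largest rises were those of 3 unnamed loci assembled from the reads, MSTRG.12375 at 0.78, 0 and 0.39 TPM and 15.5, 19.1 and 15.7 TPM (3.71 ± 0.38, adjusted p = 0.00265), MSTRG.15248 at 3.09 ± 0.46 and MSTRG.8603 at 2.81 ± 0.57 on the log2 scale. Among abundant genes Ndrg2, a differentiation-associated gene of muscle and brain, read 1229, 1338 and 1170.08 TPM and 746, 786 and 842 TPM (-0.65 ± 0.14, adjusted p = 0.0469) but passed under only 6 of 24 alternatives. Tpt1-ps3, a copy of the translationally controlled tumour protein gene, fell by a log2 value of 0.85 (adjusted p = 0.0216), next to -0.43 for Tpt1 and its copies summed. Further falls, named after their values were seen, were those of Picalm, which assembles clathrin coats (-0.98 ± 0.16), Pnrc1, a nuclear receptor coactivator (-1.13 ± 0.20), and Cblb, an E3 ubiquitin ligase that dampens immune signalling (-0.96 ± 0.17).

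**Figure D4:**
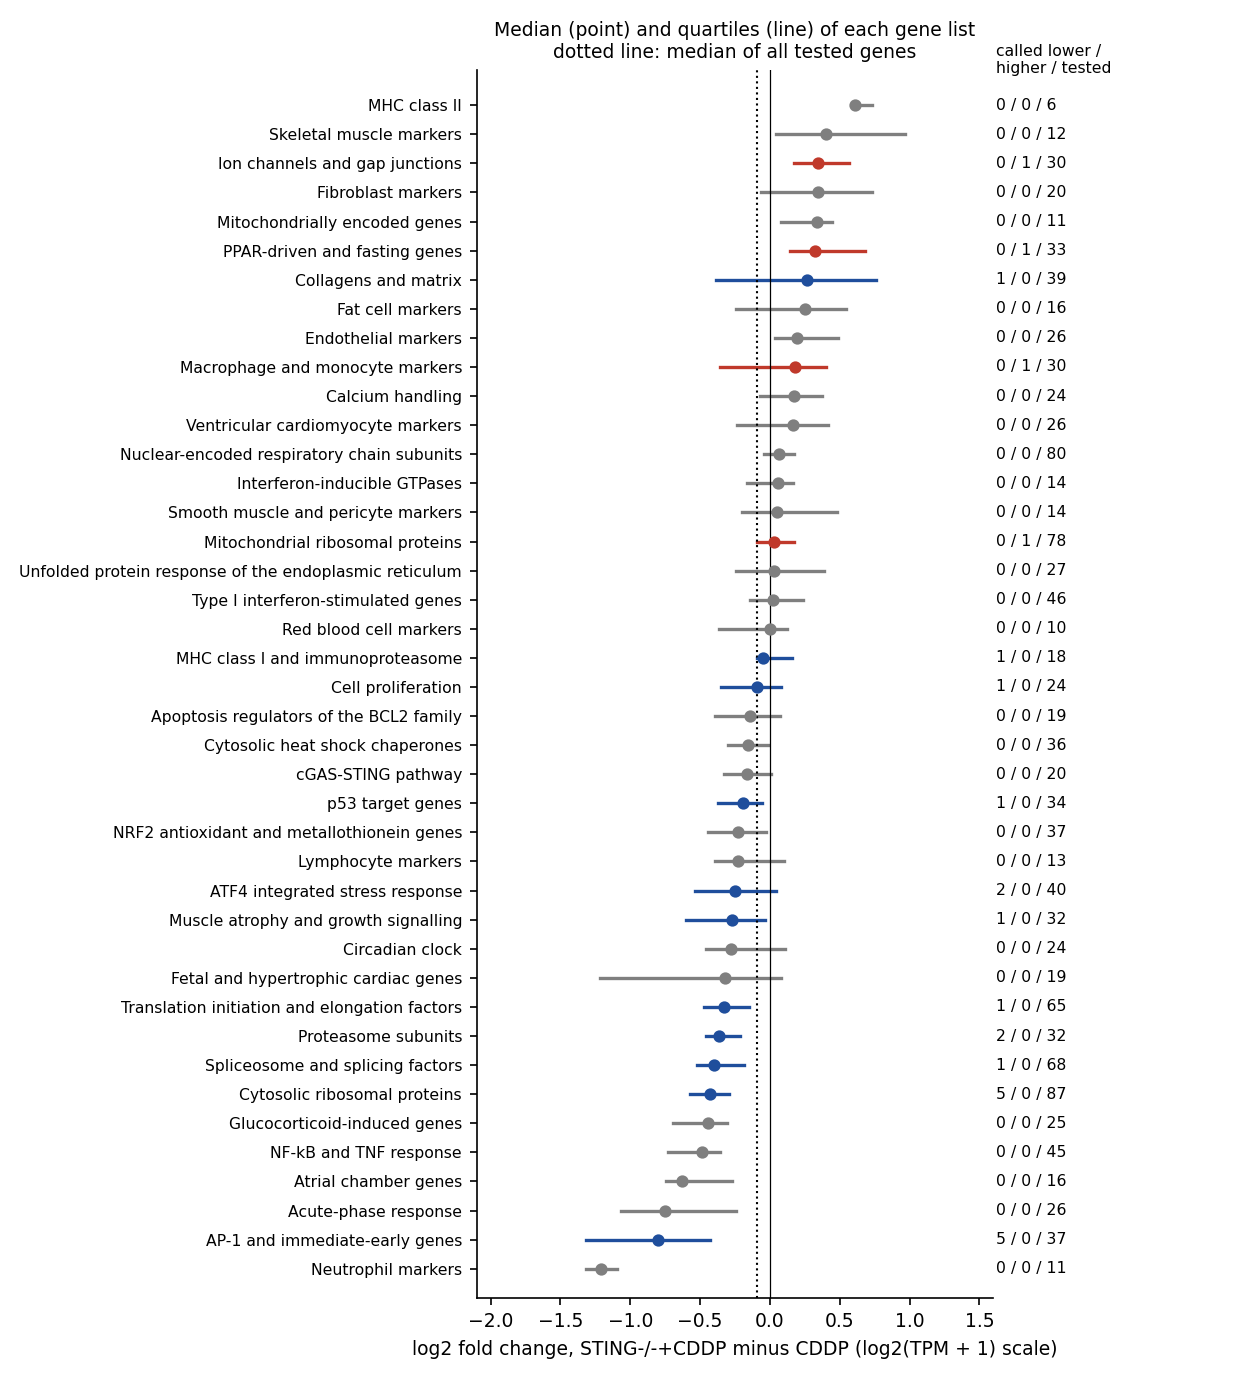
Median (point) and quartiles (line) of the log2 fold change, STING-/-+CDDP minus CDDP on the log2(TPM + 1) scale, for each gene list; the dotted line is the median of all tested genes, -0.09. The neutrophil, immediate-early, acute-phase and atrial lists lie lowest, at -1.21, -0.80, -0.75 and -0.63, and MHC class II, at 0.61, lies highest.

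The acute-phase list, with 0 of its 26 tested genes passing and a median of -0.75, and the glucocorticoid-induced list, with 0 of 25 and -0.45, both varied widely among the CDDP hearts. At an unadjusted p under 0.05 stood 6 acute-phase genes, all lower, and 4 glucocorticoid-induced genes, 2 each way. All 35 acute-phase genes in the table held 4635 to 13939 TPM in the CDDP and 3909 to 4417 TPM in the STING-/-+CDDP hearts, and 452 to 1731 TPM in the Saline hearts. The glucocorticoid-induced genes held 5857 to 12062 TPM in the CDDP and 4474 to 4997 TPM in the STING-/-+CDDP hearts. In the list of fetal and hypertrophic cardiac genes 0 of 19 passed (unadjusted p under 0.05 in 5 lower and 1 higher), with a median of -0.32. Myh7, the slow beta myosin heavy chain of the fetal and stressed heart, read 769.55, 1859 and 1988 TPM in the CDDP and 118, 390.35 and 628 TPM in the STING-/-+CDDP hearts (-2.20 ± 0.59, adjusted p = 0.0853). Without cisplatin Myh7 was 550.15, 1742 and 1190.18 TPM in the Saline and 62.98, 43.1 and 44.98 TPM in the STING-/- hearts and passed there (-4.37, adjusted p = 0.029). The change of its genotype difference with cisplatin did not pass (2.17 ± 0.83, adjusted p = 0.378). Acta1, the skeletal alpha actin of the same list, lay the other way and varied widely, at 53.8, 1.72 and 179 TPM and 136, 394 and 49.98 TPM (2.23 ± 1.29, adjusted p = 0.366). The adult form Myh6 read 3006, 6257 and 6308 TPM and 6480.1, 7129.95 and 6247 TPM (0.43 ± 0.30, adjusted p = 0.461). Of 19 tested BCL2 family genes 0 passed, 4 had an unadjusted p under 0.05, and Mcl1, an antiapoptotic member, came closest at 104, 109 and 132 TPM and 78.5, 75.03 and 57.4 TPM (-0.71 ± 0.15, adjusted p = 0.0512).

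The same genotype difference was next read without cisplatin, between the 3 STING-/- and the 3 Saline hearts, which share no heart with the comparison above. There 10 of 13815 genes passed (0.0724%), and 510 had an unadjusted p under 0.05 against 2737 under cisplatin. The 168 genes that passed under cisplatin had a median absolute log2 fold change of 1.28 there and 0.234 without it, and over all tested genes the medians were 0.251 and 0.130. Because the 168 were picked for their difference under cisplatin, a larger value there was fixed in advance. The same limit holds for the counts of the 168 that follow. Of the 168, 125 lay within 0.5 of 0 without cisplatin, 20 were at least 1 in size, 116 had the same sign in both and 24 had hearts that did not overlap in the same direction in both. Across the 13815 genes, which share libraries and are not independent replicates, Pearson's r between the 2 differences was 0.118 and Spearman's rho -0.02. Immediate-early genes had a median of -0.19 without cisplatin against -0.80 with it, cytosolic ribosomal genes -0.12 against -0.43 and proteasome subunits -0.01 against -0.37.

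Whether a genotype difference changed with cisplatin was tested gene by gene as an interaction. In that test 1 gene of 13815 passed (0.00724%), the ribosomal gene copy Rpl3-ps1, and 1615 had an unadjusted p under 0.05. Of the 168 genes, 151 had an unadjusted interaction p under 0.05, but since they were picked for their difference under cisplatin this count had to be high. For Nr4a1 the interaction was -1.88 ± 0.58 on the log2 scale (adjusted p = 0.325), for Mtrr -1.998 ± 0.34 (adjusted p = 0.267) and for Plin5 1.19 ± 0.35 (adjusted p = 0.321). None of these genes is thus shown to differ between the genotypes more with cisplatin than without.

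**Figure D5:**
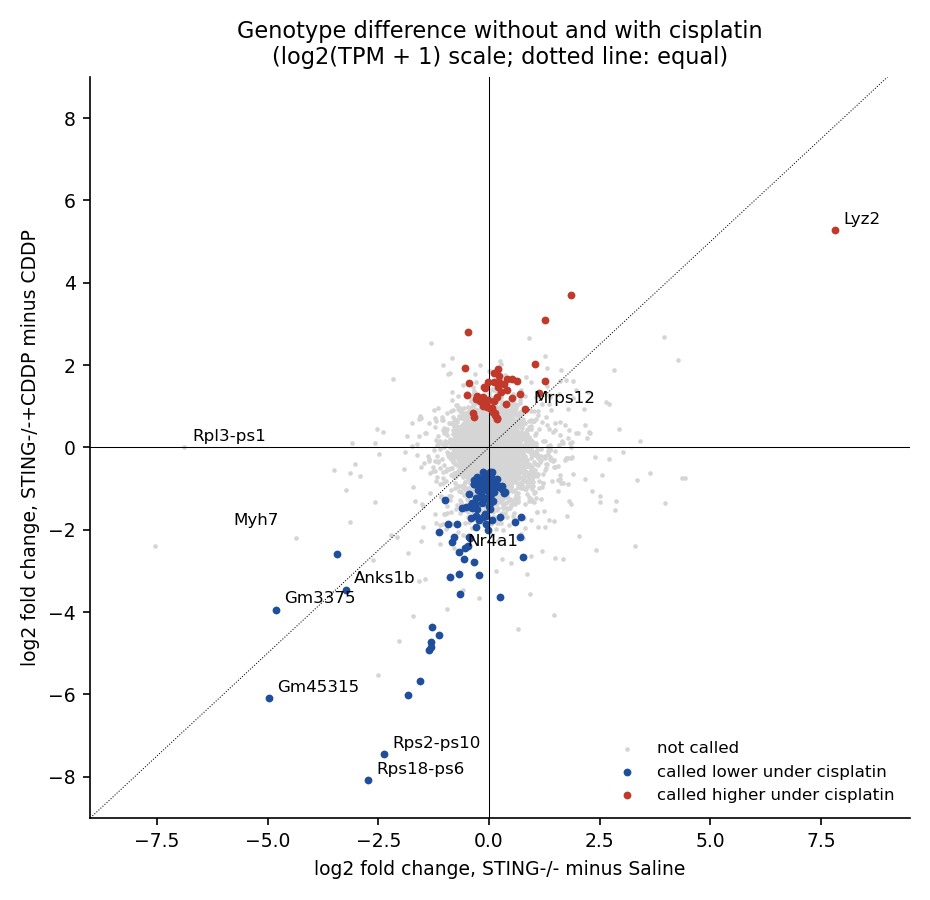
Each tested gene by its log2 fold change between STING-/- and Saline hearts (x axis) and between STING-/-+CDDP and CDDP hearts (y axis), both on the log2(TPM + 1) scale, with genes that passed under cisplatin coloured. Most coloured genes stand near 0 on the x axis and away from 0 on the y axis, by which they were picked, and Lyz2, Anks1b, Gm3375 and Gm45315 are far from 0 on both.

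In all, 5 genes passed both with and without cisplatin, in the same direction: Anks1b, Gm3375, Gm5503, Lyz2 and Mrps12. Anks1b, a scaffold protein best known from synapses, read 5.48, 11.97 and 18.2 TPM in the CDDP and 4.79, 21.7 and 10.6 TPM in the Saline hearts, and 0.12, 0.05 and 0.04 TPM in the STING-/-+CDDP and 0.18, 0.28 and 0.21 TPM in the STING-/- hearts. The pseudogene Gm3375, annotated in the table as like Psmb5, read 12.8, 14.2 and 16.4 TPM in the CDDP and 16.7, 37.6 and 31.6 TPM in the Saline hearts and was listed at 0 in all 6 STING-/- hearts, and Gm5503, annotated as like Osgep, read 5.03, 5.19 and 4.72 TPM and 5.59, 12.6 and 13.1 TPM and was listed at 0 in all 6 likewise. These 3 genes were at least 1 TPM in every wild-type heart and below 1 TPM in every STING-/- heart. Gm3375 had the smallest adjusted p of all genes, 3.71e-05. Gm45315, annotated as like Hmgb1, came close to the same pattern, at 71.7, 149.92 and 175 TPM in the CDDP, 56, 97.9 and 4.5 TPM in the Saline and 0, 2.54 and 0.71 TPM in the STING-/-+CDDP hearts, and listed at 0 in the 3 STING-/- hearts.

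Lyz2 ran in the opposite direction. It read 1.06, 1.01 and 83.5 TPM in the CDDP and 0.95, 2.45 and 1.18 TPM in the Saline hearts, and 283, 402 and 176 TPM in the STING-/-+CDDP and 706, 565 and 417 TPM in the STING-/- hearts (5.27 ± 1.10 with cisplatin, adjusted p = 0.0460). Among the 6 wild-type hearts CDDP heart 3 stood apart. Its paralog Lyz1 read 5.12, 16.9 and 14.2 TPM in the CDDP and 5.12, 8.09 and 3 TPM in the STING-/-+CDDP hearts and did not pass (adjusted p = 0.311). No other macrophage marker passed: Cd14 read 63.8, 10.04 and 27.8 TPM and 8.22, 10.54 and 6.54 TPM, Cbr2 0.98, 12.98 and 9.18 TPM and 24.7, 31.9 and 21.2 TPM, and the list had a median of 0.18, from -0.07 to 0.41 as hearts were left out. Lyz2 passed under 10 of 24 alternatives, and its adjusted p was 0.149 without STING-/-+CDDP heart 2. Mrps12, by contrast, had tight values in all 4 groups, at 35.2, 33.2 and 31.1 TPM in the Saline, 27.4, 26.5 and 29.8 TPM in the CDDP, 54.03, 65.6 and 58.4 TPM in the STING-/- and 51.96, 57.6 and 51.8 TPM in the STING-/-+CDDP hearts. The groups ordered by genotype, and the difference was 0.82 without cisplatin and 0.92 ± 0.12 with it. Whether these 5 differences come from the lost gene or from the origin of the mice cannot be told apart.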

How the data were processed

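RNA from 12 mouse hearts, 3 in each of 4 groups, was sequenced, and the authors deposited 1 table of TPM per gene. The submitters' processing notes name fastp, HISAT, RSEM and GRCm38.p5. Versions, and the rule by which reads of near-identical genes were divided, are not given in the sources used here. TPM keeps no depth, so the precision behind a single value is unknown and no counting interval was made. The table also holds group means by the authors, which were not used, and 0 columns of samples outside the series.

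Hearts were grouped by their labels. Genes with at least 1 TPM in at least 3 of the 12 hearts were tested with limma 3.58.1 (a linear model with moderated variances that follow mean expression, in R 4.3.3) on log2(TPM + 1), with 1 coefficient per group over the 12 hearts (8 residual degrees of freedom), two-sided, with Benjamini-Hochberg adjustment over all 13815 genes and a threshold of 0.05. Sting1, Il1b and Cxcl10, which were in the fit, and cytokine genes under the filter were also compared by an exact permutation test. The labels do not say outright that the hearts of a group are separate mice, and p-values measure the spread between them. The fit was tested on simulated data. Named genes were Sting1, the 12 largest rises and falls among genes with a full symbol that passed without overlap, the 3 largest among the others, the 10 most abundant, list members that passed and, for lists with fewer than 2 of these, the up to 3 with the smallest p. Most others are said in the text to have been named after their values were seen. Il6, Cxcl10, Tnf, Ifnb1, Lcn2, Lyz1, Acta1 and some gene copies and their parent genes were also named outside this rule. The genes, lists and tests were chosen with earlier results of these data known. Positions are from GENCODE M21, matched by identifier for 13520 of the genes tested, and promoters from RefSeq for 10130 of them. Sequences were aligned with Biopython 1.88, with Python 3.11.15, and matplotlib 3.10.9 served for the figures. Alternatives were another pseudocount, other filters, 3 other scalings, copies added to their parent gene, other variance models, the replicate number as a block, the 6 hearts alone, a fold threshold and each heart left out in turn. Leaving out hearts of the other 2 groups and testing protein-coding genes only were added after the data were seen.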

Additional observations from a re-analysis of the deposited data

Results flagged for a closer look

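The ribosomal gene copy Rpl3-ps1 was the one gene whose genotype difference changed with cisplatin by a test of that change, at 6.88 on the log2 scale (adjusted p = 8.11e-07 in limma, 3 hearts per group). It read 104.1, 172.9 and 89.2 TPM in the 3 Saline hearts and was listed at 0 in the other 9 hearts, both CDDP and STING-/- hearts among them, so the change lies in the Saline hearts and not in the hearts given cisplatin.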

How the results depend on the processing

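The 168 calls between STING-/-+CDDP and CDDP hearts (50 higher, 118 lower, 29.8% higher) became 12 with no filter on low TPM, 67 with the replicate block and 38 with the 6 hearts fitted alone. Scaling by medians of ratios gave 655 (276 higher and 379 lower, 42.1% higher), TPM without mitochondrially encoded genes 287 (113 and 174, 39.4%) and quantile normalization 671 (314 and 357, 46.8%), which moved the median of all tested genes from -0.09 to 0.01, by 0.10. The 12 settings that left out a heart gave 11 to 388 calls for the hearts compared and 70 to 214 for the others, the lowest without a STING-/-+CDDP heart and the highest without CDDP replicate 2. The 10 calls between STING-/- and Saline hearts became 4 with no filter, 5 with the block, 29 with array weights, 5 with protein-coding genes only and 3 to 13 as hearts were left out. The 1 gene of the interaction test became 3 with medians of ratios or quantile normalization, 2 with array weights, 0 with copies added to their parent or protein-coding genes only, and 1 to 15 as hearts were left out, 15 without Saline replicate 3. The main fit did not pair the hearts by replicate number. Deviations from the group mean correlated at -0.03, -0.07 and -0.26 between same-numbered CDDP and STING-/-+CDDP hearts and at 0.13, 0.26 and 0.06 between Saline and STING-/- hearts. Differently numbered hearts were not compared in this way, so these values cannot decide whether the numbers pair the hearts. Of the 67 calls with the block 61 were among the 168. Over 2347 pairs of a named gene that passed and an alternative, 1455 kept the call, 892 kept only the direction and 0 reversed. The causes of these changes were not tested. Depth is unknown, so a TPM near 1 cannot be given a counting error.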
